A study of Mus musculus with 16 samples.

Results

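The 10 genes followed here belong to lysosomal protein breakdown: the cathepsins *Ctsb*, *Ctsd*, *Ctsh*, *Ctsk*, *Ctsl*, *Ctss* and *Ctsz*, legumain (*Lgmn*) and the inhibitors cystatin C (*Cst3*) and cystatin B (*Cstb*). They were picked by symbol from the 49452 genes measured in 16 mice, and each had 1 row in the files. Their behaviour in these same mice was the reason for the choice, so their levels and differences are a description and carry no test. RNA was sequenced from tdTomato-positive cells sorted from the left lung lobe of male mice of 2 lines. In *Acta2-tdT* mice (Acta2-CreERT2; tdTomatoflox) a tamoxifen-responsive Cre under the *Acta2* promoter turns on the red reporter, and in *Pdgfra-tdT* mice (Pdgfra-CreERT2; tdTomatoflox) the promoter is that of *Pdgfra*. Each line had 4 mice given saline (1 to 4) and 4 given bleomycin (5 to 8), a drug that scars the lung, with lungs taken 14 days later at 11 weeks of age. Tamoxifen was given to all 16 mice, to *Acta2-tdT* mice as food of 400 mg/kg from day 5 after instillation and to *Pdgfra-tdT* mice as 5 injections of 3 mg at 6 weeks of age, so line and tamoxifen schedule cannot be told apart. The label stays on in a cell, and in its progeny, after the promoter falls silent.

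Cathepsins are proteases that digest proteins in the acid interior of lysosomes and, when released, in the matrix outside the cell. Most are cysteine proteases, *Ctsd* is an aspartic protease, and legumain cuts after asparagine and helps to mature the others. Cystatins bind cysteine cathepsins and block them: cystatin C is secreted by nearly all cells, and cystatin B stays in the cytosol. Macrophages are rich in these proteases, *Ctsk* is best known as the collagen-digesting enzyme of osteoclasts and is also made by fibroblasts, and scarred lung holds many macrophages. The genes are protein-coding and lie in the mouse genome (GRCm38): *Ctsd* chr7:142375911-142388038, *Ctsb* chr14:63122462-63145919, *Ctsl* chr13:64363214-64370306, *Ctsh* chr9:90054267-90076089, *Ctsz* chr2:174427493-174439039, *Lgmn* chr12:102394084-102439813, *Cst3* chr2:148871722-148875576, *Cstb* chr10:78425670-78427619, and the neighbours *Ctsk* and *Ctss*, given below.

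Values are FPKM, a count of fragments set against transcript length and library size, computed for each mouse on its own. FPKM of the nuclear protein-coding genes summed to 231058 to 463127 in *Acta2-tdT* bleomycin mice but to 28512 to 137952 in the other 12 mice. Each level is therefore also given scaled, so that this sum was the same in every mouse. Between the FPKM as deposited of bleomycin and saline mice of the *Acta2-tdT* line the median gene differed by 1.76 on the log2 scale, and after scaling by -0.022. In the other comparisons the median was 0.17 and 0.016 for the lines with saline, 1.81 and 0.145 for the lines with bleomycin, and 0.017 and -0.25 for *Pdgfra-tdT* mice. The number of fragments behind each value is unknown, and the half-width of the Cufflinks interval, which covers 1 library only, was 2.31% to 4.43% of the value for *Ctsd*, *Ctss* and *Cst3* in *Acta2-tdT* bleomycin mice. It was 67.6% and 70.7% for *Ctsk* in the saline groups.

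The sorted cells were checked against marker genes of the cell types a lung sort could hold, and leukocyte markers were present in every group. *Acta2* itself separated the lines, with scaled FPKM of 186 to 267 and 223 to 341 in *Acta2-tdT* mice against 4.24 to 14.9 and 0.821 to 6.92 in *Pdgfra-tdT* mice (saline and bleomycin). *Pdgfra* was 2.91 to 4.95 in *Pdgfra-tdT* saline against 0.322 to 0.776 in *Acta2-tdT* saline mice, and with bleomycin the lines overlapped at 0.873 to 2.33 and 0.529 to 1.26. The 6 mesenchymal markers summed to 4.10 to 52.0 scaled FPKM in *Pdgfra-tdT* bleomycin mice, where *Col1a1* was 0.510 to 4.75, against 203 to 310.1 and 58.4 to 106 in *Acta2-tdT* bleomycin mice. In the saline groups the mesenchymal sum was 24.7 to 34.0 (*Acta2-tdT*) and 11.0 to 46.7 (*Pdgfra-tdT*). The 11 macrophage and monocyte markers summed to 658 to 1797 in *Pdgfra-tdT* bleomycin mice and to 32.8 to 135, 321 to 1025 and 93.2 to 347 in *Pdgfra-tdT* saline, *Acta2-tdT* bleomycin and *Acta2-tdT* saline mice, with 10 of 11, 5 of 11, 10 of 11 and 6 of 11 at a mean of at least 1 FPKM. *Lyz2*, the lysozyme of macrophages and neutrophils, made up most of it at 590.1 to 1504 in *Pdgfra-tdT* bleomycin mice, and the single markers did not all rank the groups as the sum did. In *Pdgfra-tdT* and *Acta2-tdT* bleomycin mice the means were 1077 and 309 for *Lyz2* and 95.2 and 22.5 for *Chil3*, but 1.68 and 7.90 for *Csf1r*, 27.97 and 93.3 for *C1qa* and 95.0 and 202 for *C1qb*. The 6 general leukocyte markers summed to 244 to 336, 201 to 404, 11.8 to 65.5 and 108 to 377, and the 6 neutrophil markers to 1016 to 1496, 129 to 879.9, 17.6 to 75.7 and 14.9 to 52.3, in the order saline then bleomycin of the *Acta2-tdT* and then of the *Pdgfra-tdT* mice. Over all 16 mice the 6 lymphocyte markers did not exceed 6.20 and the 7 epithelial markers ran from 24.1 to 794. The 6 endothelial markers stood at 295 in *Pdgfra-tdT* saline mouse 3 and 348, 105 and 35.5 in *Pdgfra-tdT* bleomycin mice 5, 6 and 7, and at 11.1 or less in all 8 *Acta2-tdT* mice. No listed marker was at 0 in all mice of a group. *Pdgfra-tdT* saline mouse 3 and *Pdgfra-tdT* bleomycin mouse 8 stand apart from their groups in several genes below, and some results that rest on them are also given without them.

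*Ctsd*, the aspartic protease, and *Ctss*, a cysteine protease of antigen-presenting cells, were the most abundant proteases after bleomycin in both lines. Scaled FPKM of *Ctsd* was 13.7, 10.1, 18.6 and 26.4 in *Acta2-tdT* saline mice and 47.3, 88.0, 126 and 90.8 in *Acta2-tdT* bleomycin mice. In *Pdgfra-tdT* mice it was 4.83, 5.49, 20.1 and 10.7 with saline and 184, 194, 235 and 43.3 with bleomycin. In both lines every bleomycin mouse was above every saline mouse, and *Pdgfra-tdT* bleomycin mouse 8 was the lowest of its group. The difference of mean log2(scaled FPKM + 1) was 2.29 ± 0.40 (SE, 4 mice a group) in *Acta2-tdT* and 3.82 ± 0.70 in *Pdgfra-tdT* mice, and 5.25 ± 0.61 and 4.27 ± 1.10 with FPKM as deposited. Scaled FPKM of *Ctss* was 9.998, 6.44, 6.20 and 18.9 against 45.4, 81.6, 153 and 62.0 in *Acta2-tdT* and 7.87, 4.41, 2.79 and 11.2 against 96.1, 229, 270.2 and 35.2 in *Pdgfra-tdT* mice, saline first. Its groups did not overlap in either line, and its scaled differences, 2.91 ± 0.50 and 4.15 ± 0.76, were the largest of the 10 genes in each line on that log2 scale. Taken as a ratio of mean scaled FPKM, *Ctsk*, under 1 FPKM in saline mice, was slightly above *Ctss* in *Acta2-tdT* mice, 8.31 against 8.23. As bulk RNA, a group with more cells of a type and a group with more of a transcript per cell cannot be told apart.

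**Figure D1:**
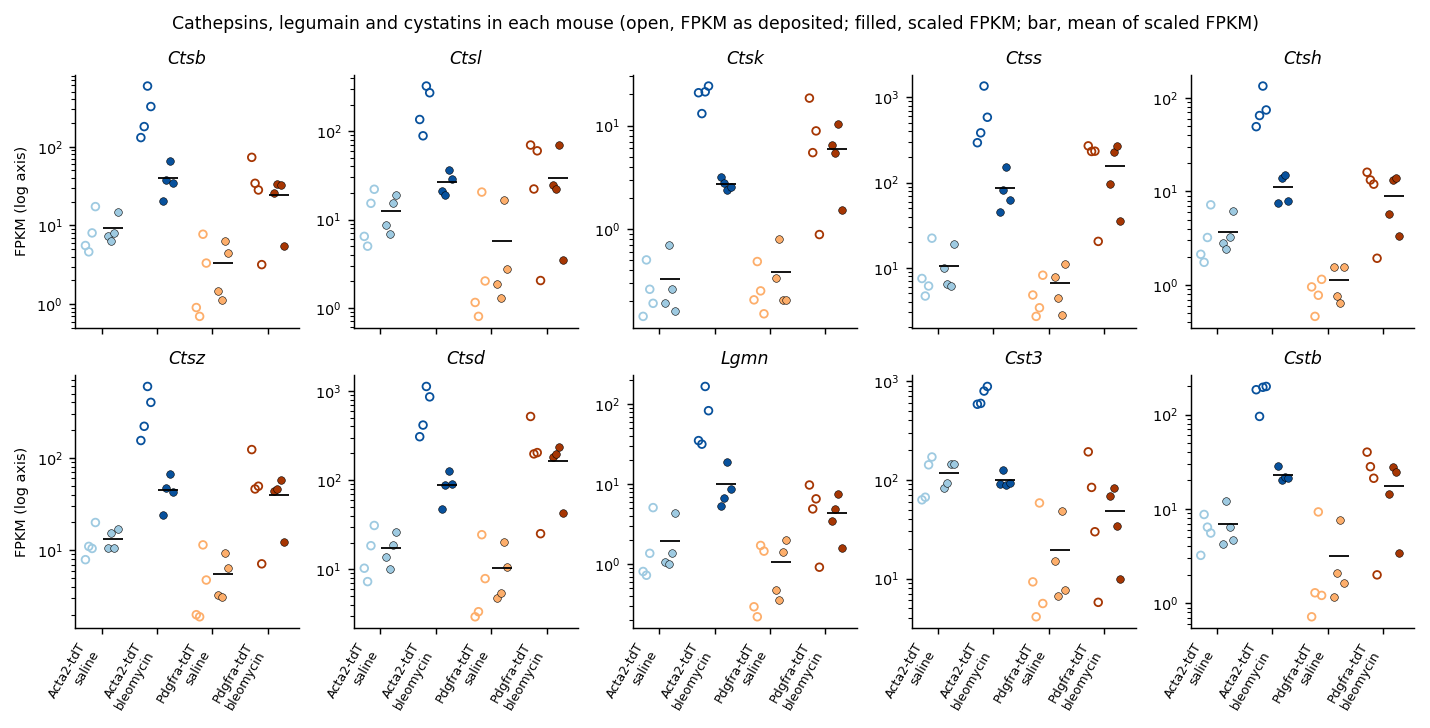
FPKM of the 10 genes in each mouse on a log axis, by group, with open circles for FPKM as deposited, filled circles for scaled FPKM and a bar at the mean of the 4 scaled values. In the *Acta2-tdT* bleomycin group the open circles lie far above the filled ones, and for *Cst3* the filled circles of both *Acta2-tdT* groups overlap (83.5 to 145 and 89.3 to 126).

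Among the other cysteine endopeptidases, *Ctsb*, an abundant protease of most cell types, had scaled FPKM of 7.39, 6.36, 8.11 and 14.7 in *Acta2-tdT* saline and 20.2, 38.3, 66.5 and 34.4 in *Acta2-tdT* bleomycin mice. In *Pdgfra-tdT* mice it was 1.48, 1.14, 6.34 and 4.52 with saline and 26.1, 33.9, 32.5 and 5.46 with bleomycin. The *Pdgfra-tdT* groups overlapped, with saline mouse 3 above bleomycin mouse 8, and without mouse 8 the scaled difference went from 2.47 to 3.05 on the log2 scale with no overlap. *Ctsl*, a broad endopeptidase, was 8.59, 6.88, 15.5 and 18.7 and 21.0, 18.9, 36.7 and 29.0 in *Acta2-tdT* mice, saline first, with the lowest bleomycin mouse just above the highest saline mouse. It was 1.88, 1.31, 16.8 and 2.74 in *Pdgfra-tdT* saline mice, where mouse 3 was far above the others, and 24.9, 21.9, 69.4 and 3.51 in *Pdgfra-tdT* bleomycin mice. Its scaled difference was 1.08 ± 0.38 in *Acta2-tdT* mice, the smallest of the 8 proteases there, and 2.18 ± 1.06 in *Pdgfra-tdT* mice, where it was 2.92 without bleomycin mouse 8 and 2.83 without saline mouse 3, both with no overlap.

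*Ctsk*, the collagenolytic cathepsin, was under 1 FPKM in every saline mouse of both lines, with FPKM as deposited of 0.143, 0.503, 0.262 and 0.192 in *Acta2-tdT* and 0.207, 0.485, 0.253 and 0.152 in *Pdgfra-tdT* mice. For scale, the 8 rodent placental cathepsins, relatives described in placenta, had mean FPKM of 0.0671 to 1.504 per gene in *Acta2-tdT* saline and 0.0617 to 1.42 in *Pdgfra-tdT* saline mice. With bleomycin *Ctsk* was 20.7, 13.0, 21.2 and 24.1 FPKM in *Acta2-tdT* and 18.4, 5.47, 8.87 and 0.884 in *Pdgfra-tdT* mice, or 3.20, 2.77, 2.38 and 2.55 and 6.55, 5.41, 10.2 and 1.52 scaled. Every bleomycin mouse was above every saline mouse of its line, and the *Acta2-tdT* bleomycin mice spanned 2.38 to 3.20 on the scaled axis. The scaled difference was 1.5 ± 0.14 in *Acta2-tdT* and 2.15 ± 0.48 in *Pdgfra-tdT* mice, a scale on which the added 1 understates the change of so low a gene. *Ctsk* (GRCm38 chr3:95499256-95509362) and *Ctss* (chr3:95526786-95556403) are neighbours with 17423 bases and 0 other annotated genes between them.

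The exopeptidases *Ctsh* and *Ctsz*, which trim the ends of peptides, and legumain also had higher means after bleomycin in both lines. Scaled *Ctsh* ranged over 2.41 to 6.12 and 7.61 to 15.1 in *Acta2-tdT* and 0.639 to 1.57 and 3.33 to 13.8 in *Pdgfra-tdT* mice, saline first, without overlap in either line. Scaled *Ctsz* ranged over 10.53 to 17.0 and 23.9 to 67.3 in *Acta2-tdT* and 3.10 to 9.38 and 12.3 to 57.1 in *Pdgfra-tdT* mice, and the *Pdgfra-tdT* groups overlapped as deposited (1.90 to 11.4 and 7.12 to 123). Their scaled differences were 1.38 ± 0.33 and 1.63 ± 0.34 in *Acta2-tdT* and 2.08 ± 0.46 and 2.55 ± 0.58 in *Pdgfra-tdT* mice. Scaled *Lgmn* was 1.09, 1.01, 1.39 and 4.35 against 5.43, 6.75, 18.8 and 8.82 in *Acta2-tdT* mice and 0.484, 0.362, 1.41 and 1.99 against 3.49, 4.87, 7.61 and 1.59 in *Pdgfra-tdT* mice, where 1 saline mouse reached above bleomycin mouse 8. Legumain had the smallest scaled difference of the proteases in *Pdgfra-tdT* mice, 1.33 ± 0.46, against 1.87 ± 0.49 in *Acta2-tdT* mice. Without bleomycin mouse 8 the *Pdgfra-tdT* difference was 1.64 with no overlap, and without saline mouse 3 it was 1.43 with overlap.

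The 2 inhibitors had unlike patterns. Cystatin C had the highest group mean of the 10 transcripts in 3 of the 4 groups, though not in every mouse, and in *Acta2-tdT* mice its scaled FPKM was 83.5, 91.9, 143 and 145 with saline and 89.9, 126, 89.3 and 93.6 with bleomycin. These groups overlapped, at a scaled difference of -0.18 ± 0.24, whereas FPKM as deposited did not overlap at 62.7, 66.6, 142 and 170.2 and 583, 595, 792 and 882, a difference of 2.79 ± 0.40 with the opposite sign. In *Pdgfra-tdT* mice scaled *Cst3* was 15.2, 6.69, 47.8 and 7.60 with saline and 68.4, 82.8, 34.4 and 9.88 with bleomycin, overlapping also without saline mouse 3 or without bleomycin mouse 8. Cystatin B, the intracellular inhibitor, was 4.29, 12.04, 6.49 and 4.72 against 28.3, 20.3, 21.9 and 21.0 in *Acta2-tdT* mice without overlap, a scaled difference of 1.68 ± 0.31. It was 1.18, 2.11, 7.63 and 1.65 against 14.2, 27.7, 24.4 and 3.45 in *Pdgfra-tdT* mice, where the overlap again lay between saline mouse 3 and bleomycin mouse 8. The scaled difference, 2.08 ± 0.76, was 2.66 without mouse 8 and 2.51 without mouse 3, both with no overlap, and that of *Cst3*, 1.36 ± 0.90, was 1.97 and 1.92, both with overlap.

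Counted together for *Acta2-tdT* mice, every bleomycin mouse was above every saline mouse for 10 of the 10 genes with FPKM as deposited, beside 67.8% of all 12523 genes tested, and for 9 of 10 scaled, beside 21.5%. For *Pdgfra-tdT* mice the counts were 4 of 10 as deposited (*Ctsd*, *Ctss*, *Ctsk* and *Ctsh*), beside 1.43% of 7275 genes, and 5 of 10 scaled (*Ctsz* joining them), beside 1.31%. Without *Pdgfra-tdT* bleomycin mouse 8 the scaled count was 9, beside 5.75% of 6419 genes, and without *Pdgfra-tdT* saline mouse 3 it was 8, beside 6.52% of 5969. A gene was tested where at least 4 of the 8 mice had at least 1 FPKM. All 10 passed in *Acta2-tdT* mice, *Ctsk* only through its bleomycin mice, and 9 passed in *Pdgfra-tdT* mice, where *Ctsk* did not. Since these contrasts chose the genes, nothing is read from the counts.

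**Figure D2:**
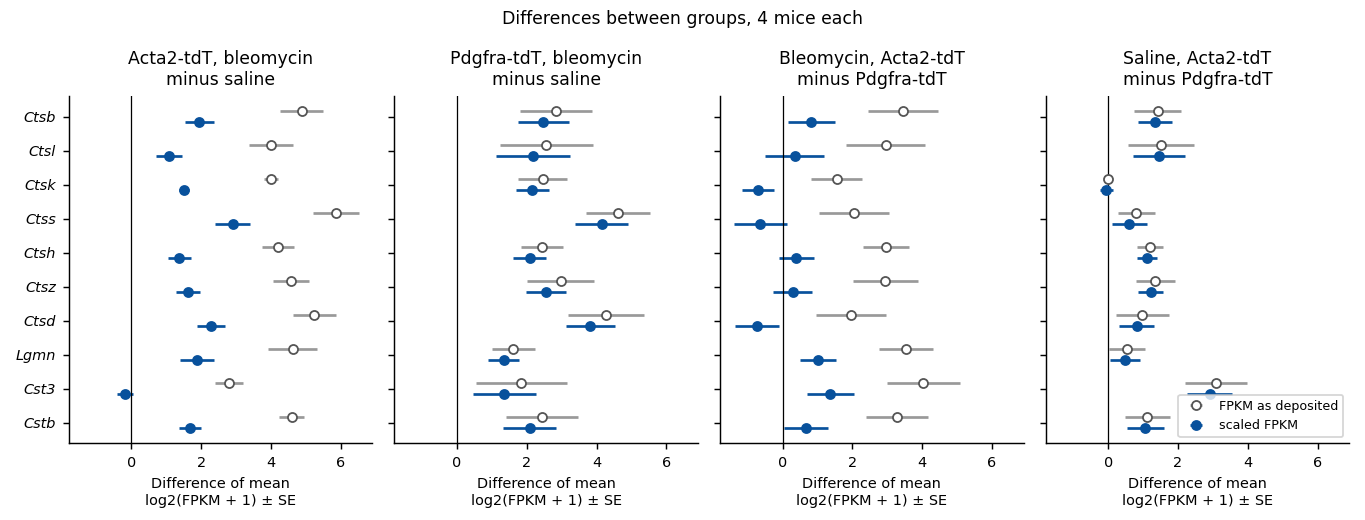
Difference of mean log2(FPKM + 1) between groups of 4 mice for the 10 genes, with SE bars, as deposited (open) and scaled (filled). In *Acta2-tdT* mice the scaled differences of bleomycin minus saline run from -0.18 (*Cst3*) to 2.91 (*Ctss*), and in *Pdgfra-tdT* mice from 1.33 (*Lgmn*) to 4.15 (*Ctss*).

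Between the lines with saline, scaled levels of *Cst3*, *Ctsb*, *Ctsz* and *Ctsh* were higher in every *Acta2-tdT* mouse than in every *Pdgfra-tdT* mouse. These 4 of 10 stand beside 7.75% of 8153 genes, and the 2 of 10 found as deposited (*Cst3* and *Ctsh*) beside 6.56%. The scaled difference of *Cst3* was 2.91 ± 0.65, the largest, and those of *Ctsb*, *Ctsz* and *Ctsh* were 1.34 ± 0.50, 1.21 ± 0.36 and 1.10 ± 0.29. *Ctsk* differed by -0.06 ± 0.18, with every mouse of both groups under 1 FPKM as deposited. Leaving out *Pdgfra-tdT* saline mouse 3 raised the scaled count to 6, with *Ctsl* and *Cstb* added, beside 24.8% of 7356 genes. Between the lines with bleomycin the picture turned with the scale: 8 of 10 genes were higher in every *Acta2-tdT* mouse as deposited, beside 56.8% of 11995 genes, but 1 of 10 scaled, beside 18.9%. That gene was *Cst3*, at 89.3 to 126 against 9.88 to 82.8, a scaled difference of 1.37 ± 0.68. Scaled *Ctsd*, *Ctss* and *Ctsk* had lower means in *Acta2-tdT* than in *Pdgfra-tdT* bleomycin mice, 88.1 ± 32.3 against 164 ± 83.5, 85.6 ± 47.5 against 158 ± 110.4 and 2.73 ± 0.353 against 5.93 ± 3.59 (SD, n = 4), with overlapping groups. *Ctsl* had 26.4 ± 8.13 against 29.9 ± 27.96, also with overlap, but a positive scaled log2 difference, 0.35 ± 0.85. As deposited *Ctsd*, *Ctss* and *Ctsk* had positive differences of 1.95 ± 1.01, 2.04 ± 1.0 and 1.55 ± 0.73. Without *Pdgfra-tdT* bleomycin mouse 8, *Ctsd* and *Ctsk* were lower in every *Acta2-tdT* mouse, beside 15.6% of 11258 genes (14.7% with all mice in place), at scaled differences of -1.28 and -1.14, and *Cst3* was still higher, beside 21.5%.

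Ratios taken within a mouse do not depend on the scaling, and the makeup of the protease pool differed between groups. Of the summed FPKM of the 8 proteases, *Ctss* made up 14.8% ± 4.11 (SD, n = 4) in *Acta2-tdT* saline and 26.8% ± 3.79 in *Acta2-tdT* bleomycin mice, ranging over 9.70 to 18.4% and 22.3 to 31.5% without overlap. *Ctsl* went the other way, 17.9% ± 4.43 against 9.10% ± 2.61, with ranges of 14.0 to 24.2% and 6.36 to 12.1%. *Ctsh* also took a smaller share in every *Acta2-tdT* bleomycin mouse, 3.74% ± 0.901 against 5.25% ± 0.357, as did *Ctsz*, 14.7% ± 1.04 against 20.7% ± 6.99. The shares of *Ctsb*, *Ctsd* and *Lgmn* overlapped at 13.3% ± 0.534 and 12.6% ± 0.882, 24.9% ± 3.54 and 28.9% ± 2.96, and 2.58% ± 1.01 and 3.11% ± 0.654. In *Pdgfra-tdT* mice *Ctsz* and *Lgmn* held smaller shares in every bleomycin mouse, 9.83% ± 1.82 against 16.4% ± 1.14 and 1.09% ± 0.285 against 2.95% ± 1.41. The shares of *Ctsd* (22.2 to 34.8% and 33.8 to 47.1%) and *Ctss* (4.84 to 36.2% and 24.6 to 41.8%) overlapped between the *Pdgfra-tdT* groups, where saline mouse 3 had 29.1% *Ctsl* and 4.84% *Ctss*. The overlap of *Ctsd* came from that mouse alone, as saline mice 1, 2 and 4 had 22.2, 31.6 and 27.3%, while *Ctss* overlapped also without it. Between the lines with bleomycin, *Ctsb* was 11.6 to 13.7% in *Acta2-tdT* and 4.68 to 6.68% in *Pdgfra-tdT* mice, *Ctsz* 13.7 to 15.8% and 8.21 to 11.6%, *Lgmn* 2.27 to 3.87% and 0.888 to 1.49%, and *Ctsd* 26.0 to 32.7% and 33.8 to 47.1%, each without overlap. *Ctsd* was the one of these 4 with the larger share in *Pdgfra-tdT* mice. *Ctsk* stayed a minor component, at no more than 4.57% in any mouse.

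**Figure D3:**
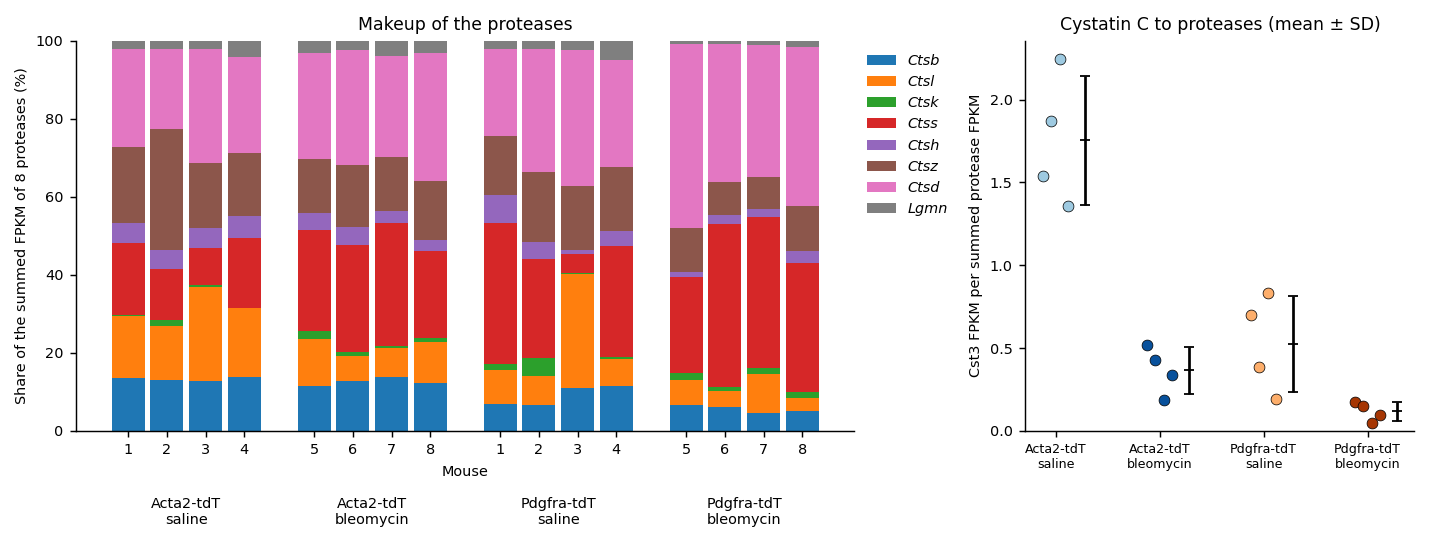
Left, share of each of 8 proteases in their summed FPKM (percent) in each of the 16 mice; right, *Cst3* FPKM per summed protease FPKM in each mouse, with mean ± SD of 4 mice. *Ctsd* and *Ctss* together fill most of each *Pdgfra-tdT* bleomycin bar, and the *Acta2-tdT* saline points (1.36 to 2.25) lie above all others.

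Cystatin C was scarcer relative to the proteases after bleomycin in both lines. Per unit of summed protease FPKM, *Acta2-tdT* saline mice held 1.75 ± 0.391 of *Cst3* (range 1.36 to 2.25) and *Acta2-tdT* bleomycin mice 0.366 ± 0.142 (0.184 to 0.517). *Pdgfra-tdT* saline mice held 0.526 ± 0.290 (0.193 to 0.829) and *Pdgfra-tdT* bleomycin mice 0.117 ± 0.0567 (0.0494 to 0.175). In each line the bleomycin ratios lay below all saline ratios, and in each treatment *Pdgfra-tdT* ratios lay below all *Acta2-tdT* ratios, with the nearest pair after bleomycin at 0.175 and 0.184. The protease sum counts *Ctsd*, which is no cysteine protease. With bleomycin it made up 26.0 to 32.7% of the sum in *Acta2-tdT* and 33.8 to 47.1% in *Pdgfra-tdT* mice. Ratios to the cysteine proteases alone were not taken, and these separations need not hold for them. The ratio of *Cstb* overlapped between saline and bleomycin in *Acta2-tdT* mice, 0.118 ± 0.0885 and 0.0879 ± 0.0514, and also in *Pdgfra-tdT* mice, 0.0876 ± 0.0460 and 0.0386 ± 0.00810. The summed proteases themselves were 49.1 to 106 scaled FPKM in *Acta2-tdT* saline, 174 to 486 in *Acta2-tdT* bleomycin, 17.4 to 57.7 in *Pdgfra-tdT* saline and 106 to 696 in *Pdgfra-tdT* bleomycin mice. These ratios compare transcripts and say nothing of active enzyme.

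The summed macrophage and monocyte markers were high in the same groups as the summed proteases, though not every single marker was. The summed FPKM of the 8 proteases per summed FPKM of the 11 markers was 0.306 to 0.527 in *Acta2-tdT* saline, 0.360 to 0.583 in *Acta2-tdT* bleomycin, 0.161 to 1.76 in *Pdgfra-tdT* saline and 0.162 to 0.404 in *Pdgfra-tdT* bleomycin mice. These ranges overlapped in all 4 comparisons, and the highest, 1.76, belonged to *Pdgfra-tdT* saline mouse 3, which had the lowest macrophage sum and high *Ctsl*, *Cst3* and *Cstb* beside endothelial markers. Per macrophage marker, *Ctss* was 0.0302 to 0.0721 and 0.0989 to 0.149 in *Acta2-tdT* mice, saline first and without overlap, and 0.0584 to 0.0941 and 0.0535 to 0.157 in *Pdgfra-tdT* mice. *Cst3* did not keep this ratio: in *Acta2-tdT* mice it ran from 0.417 to 0.986 with saline and from 0.0872 to 0.280 with bleomycin. Per smooth muscle marker, however, *Cst3* was 0.183 to 0.235 and 0.165 to 0.292 in the same *Acta2-tdT* groups, whereas the 8 proteases were 0.0977 to 0.168 and 0.472 to 1.31. The 6 smooth muscle markers summed to 429 to 634 and 368 to 568 scaled FPKM in *Acta2-tdT* saline and bleomycin mice and to 10.1 to 24.0 and 2.11 to 13.0 in *Pdgfra-tdT* mice, where *Myl9* and *Tagln* were each at 0 in 1 bleomycin mouse. In *Acta2-tdT* mice single markers of this sum differed in opposite directions, with scaled means, saline first, of 240.2 and 266 for *Acta2*, 258 and 96.1 for *Myl9*, 11.6 and 46.0 for *Des* and 10.9 and 2.35 for *Myh11*, so the ratio holds for the sum and not for each marker. Per general leukocyte marker the proteases were 0.201 to 0.317 and 0.728 to 1.38 in *Acta2-tdT* mice, saline first and without overlap, and 0.332 to 4.89 and 0.986 to 2.31 in *Pdgfra-tdT* mice, with overlap. The 4.89 belonged to *Pdgfra-tdT* saline mouse 3, and without that mouse these groups did not overlap. *Cst3* per general leukocyte marker overlapped between the *Acta2-tdT* groups, at 0.309 to 0.513 and 0.221 to 0.466, saline first. The part of macrophages and other leukocytes in the members' levels was not tested.

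**Figure D4:**
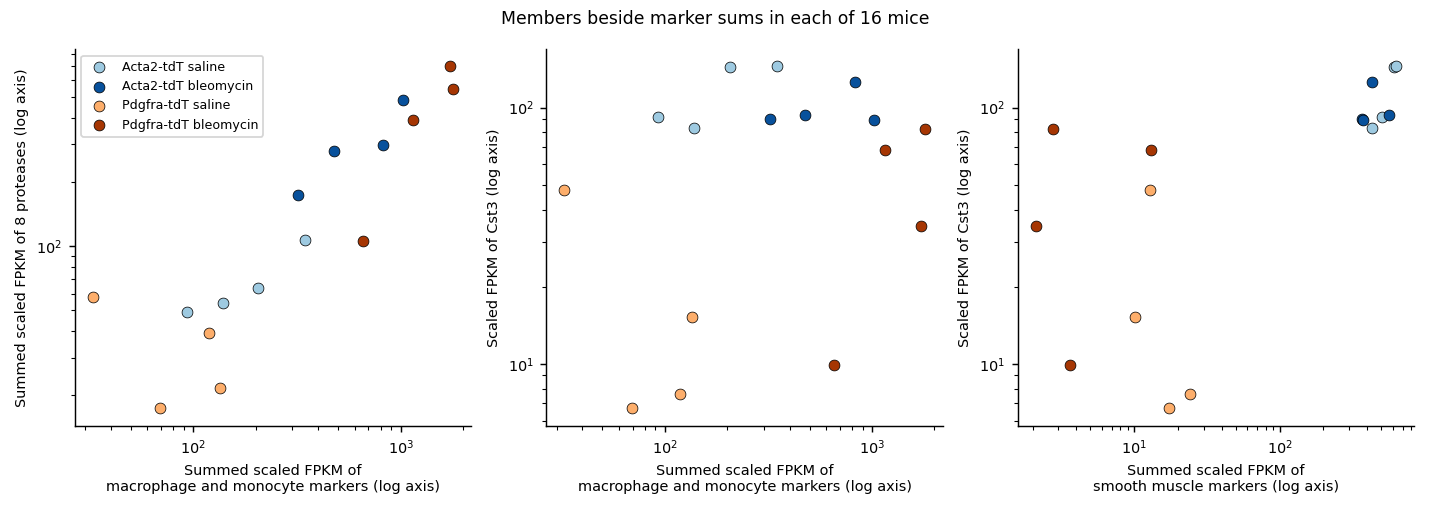
Each of 16 mice by the summed scaled FPKM of macrophage and monocyte markers (left and middle) or smooth muscle markers (right) and by the summed scaled FPKM of the 8 proteases (left) or scaled FPKM of *Cst3* (middle and right), all on log axes. In the left panel the mice with the highest marker sums, *Pdgfra-tdT* bleomycin mice 6 and 7, also have the highest protease sums. In the middle panel the 8 *Acta2-tdT* mice stay within 83.5 to 145 of *Cst3* whatever their macrophage sum.

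The genes other than the 10 members whose pattern over the 16 mice was most like that of each member differed between proteases and cystatin C. Likeness was Pearson's r of log2(scaled FPKM + 1) with 10053 genes, the other members left out of the ranking, over mice that share groups and differ in depth, and is a description only. Among non-members *Ctss* was closest to *Trem2* (0.981), *Clec4n* (0.966), *Cd68* (0.960), all genes of myeloid cells, and *Lgmn* to *Ctsc* (0.936), *C1qc* (0.932), *Csf2ra* (0.931). *Ctsb* and *Ctsz* had the same leading 3 non-members in different order, *Ctsa* (0.987), *Psap* (0.979), *Hexa* (0.975) for *Ctsb*. *Ctsd* was closest to *Lpl* (0.953), *Pld3* (0.950), *Psap* (0.937), *Ctsk* to *Pld3* (0.931), *Acp5* (0.928), *Mmp19* (0.923), *Ctsh* to *Abhd12* (0.965), *Ifi30* (0.964), *Laptm5* (0.964) and *Ctsl* to *Sh3bgrl3* (0.965), *Lamp2* (0.957), *Atp6v0c* (0.955). *Cstb* was closest to *Esd* (0.922), *Lcp1* (0.919), *Snx2* (0.919). *Cst3* was closest to *Myl6* (0.981), *Ndufb7* (0.971), *Cd81* (0.967), a myosin light chain, a subunit of mitochondrial complex I and a tetraspanin, and its r was 0.16 with *Ctsk*, 0.28 with *Ctss* and 0.71 with *Ctsl*. Among the 8 proteases r ran from 0.63 (*Ctsk* with *Lgmn*) to 0.98 (*Ctsb* with *Ctsz*).

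Many lysosomal genes carry in their promoter the E-box CACGTG or its longer form TCACGTGA, to which the lysosomal regulators TFEB and TFE3 bind. RefSeq windows of 300 bases, from 250 before to 50 after a start (GRCm38.p6), were at hand for 7 of the 10 genes, with *Lgmn* having 2 starts. CACGTG, which reads the same on either strand, was in 3 of these 7, namely *Ctsd*, *Lgmn* and *Ctsl*, in 18 of 58 (31.0%) of the other lysosomal genes with a window and in 8.09% of all 27025 genes. TCACGTGA, which contains it, was in *Ctsd* alone among the 7, in 10 of 58 (17.2%) and in 1.12%. The 4 matches are shown with 30 bases each, 5′ to 3′ on the gene's strand, to let the 3 genes that hold the letters be compared, and the capitals mark the match.
Ctsd, chr7:142388048-142388077, minus strand: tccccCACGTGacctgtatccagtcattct
Ctsd, chr7:142387908-142387937, minus strand: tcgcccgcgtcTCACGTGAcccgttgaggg
Lgmn, chr12:102439124-102439153, minus strand: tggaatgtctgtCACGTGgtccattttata
Ctsl, chr13:64370739-64370768, minus strand: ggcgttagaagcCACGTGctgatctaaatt
The matches lie 245 and 98 bases before the *Ctsd* start, 49 before the second *Lgmn* start and 236 before the *Ctsl* start, counted to the first base of CACGTG. By the gene coordinates of the files, the second *Ctsd* stretch and the *Lgmn* stretch lie within their genes, and the first *Ctsd* stretch and the *Ctsl* stretch lie before them. *Ctss*, *Ctsz*, *Ctsk* and *Cst3* had no match in their windows, and their scaled differences in *Pdgfra-tdT* mice were 4.15, 2.55, 2.15 and 1.36. *Ctsd*, with 2 matches, had 3.82, and *Ctsl* and *Lgmn*, with 1 match each, had 2.18 and 1.33. Whether a match goes with the difference was not tested. A match is a string of letters and no measured site.

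Related genes were taken as 104 other genes in 7 lists, of which 103 were in the files and *Galns* was not analysed here. Differences of these genes were tested with limma, with Benjamini-Hochberg adjustment over all genes. In *Acta2-tdT* mice 69 of the 71 list genes tested rose with bleomycin as deposited, beside 70.4% of all genes, and 1 fell, beside 16.3%. After scaling 41 rose, beside 23.9%, and 3 fell, beside 32.6%. The median scaled log2 difference of the 71 was 0.64, against -0.022 over all genes. Between the same groups the summed macrophage and monocyte markers went from 93.2 to 347 with saline to 321 to 1025 with bleomycin, and their part in the list genes was not tested. In *Pdgfra-tdT* mice 0 of 37 list genes passed, with limma, as deposited or scaled, where 2 genes in all rose on each scale (0.0275% and 0.0275% of those tested). At an unadjusted p under 0.05 there were 13 and 11 of the 37 in limma, and 312 and 324 of all 7275. The median scaled difference of the 37 was 1.13, against -0.25 over all genes. The effect of bleomycin differed between the lines for 40 of 74 list genes as deposited, each larger in *Acta2-tdT* mice, beside 36.6% of all genes, and for 0 scaled, beside 1.33% in limma. At an unadjusted p under 0.05 there were 3 of the 74 list genes scaled, and 3165 of all 16605.

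Of the 7 other cathepsins 4 had at least 1 FPKM in at least 4 mice. *Ctsa*, the carboxypeptidase that protects neuraminidase, and *Ctsc*, the dipeptidyl peptidase that activates granule proteases, rose in *Acta2-tdT* mice, from 9.25 ± 4.71 to 27.7 ± 11.8 and from 4.51 ± 1.18 to 14.4 ± 4.81 scaled FPKM. Their scaled log2 differences were 1.5 ± 0.42, adjusted p = 0.0123, and 1.46 ± 0.28, adjusted p = 0.00169 (limma). *Ctso*, a little-studied cysteine cathepsin, fell on the scaled axis, -0.88 ± 0.16, adjusted p = 0.00126, but rose as deposited, 0.79 ± 0.23, adjusted p = 0.00819. *Ctsf*, a lysosomal cysteine cathepsin, rose as deposited (2.25 ± 0.56, adjusted p = 0.00317) and had a scaled difference of 0.05 ± 0.29, adjusted p = 0.899. In *Pdgfra-tdT* mice *Ctsa* and *Ctsc* had scaled differences of 2.2 ± 0.77, adjusted p = 0.776, and 1.23 ± 0.60, adjusted p = 0.776, from means of 2.90 ± 2.36 and 2.62 ± 0.406 to 17.7 ± 9.23 and 8.17 ± 3.69. *Ctse*, *Ctsg* and *Ctsw* reached 1 FPKM in 2, 0 and 2 mice. Of the 8 placental cathepsins *Cts8* alone was tested, and in *Acta2-tdT* mice it fell, -1.25 ± 0.14, adjusted p = 5.05e-05 scaled, from 1.67 ± 0.351 to 0.122 ± 0.123.

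Of 16 other cystatin family genes 4 reached 1 FPKM in at least 4 mice, 3 of them stefins, close relatives of *Cstb* that lie in near-identical copies and whose reads may be shared between copies. *Stfa2l1* was higher in *Acta2-tdT* than in *Pdgfra-tdT* mice with saline, 7.33 ± 1.07 against 0.775 ± 0.637 scaled FPKM, a log2 difference of 2.30 ± 0.35, adjusted p = 0.00729 (limma). It was the 1 list gene of 35 called with saline on either scale, beside 2.72% and 3.2% of all genes, and the neutrophil markers given above stood apart between the same groups, 1016 to 1496 against 17.6 to 75.7. Their part in it was not tested. The count of list genes called was 0 without *Acta2-tdT* saline mouse 1, 3 or 4, and 17 as deposited or 19 scaled without *Pdgfra-tdT* saline mouse 3, where 2141 and 2850 of all 7356 genes were called. With bleomycin it was 4.59 ± 3.15 against 0.228 ± 0.264, 2.04 ± 0.40, adjusted p = 0.00514. *Stfa1* was listed at 0 in all 4 *Pdgfra-tdT* saline mice and was 1.48 ± 1.22 and 1.83 ± 1.12 in *Acta2-tdT* mice, and *Stfa2* was 1.25 ± 1.88 and 0.316 ± 0.231. *Cst8*, a cystatin of the male reproductive tract, was 1.25 ± 0.719 and 1.77 ± 1.36 in the saline groups. *Stfa1*, *Stfa2* and *Stfa2l1* did not pass in *Acta2-tdT* mice after scaling, at 0.21 ± 0.36, adjusted p = 0.645, -0.47 ± 0.43, adjusted p = 0.375 and -0.73 ± 0.37, adjusted p = 0.117. As deposited *Stfa1* and *Stfa2l1* rose, 2.52 ± 0.53, adjusted p = 0.00115, and 1.91 ± 0.44, adjusted p = 0.00215, and *Stfa2* had 0.87 ± 0.53, adjusted p = 0.143.

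The machinery around the cathepsins was scored in *Acta2-tdT* mice by list. As deposited all tested genes of the next 4 lists rose, 30 of 30, 11 of 11, 16 of 16 and 6 of 6, beside 70.4% of all genes, and the values that follow are scaled, beside 23.9% that rose and 32.6% that fell. Of the other lysosomal hydrolases and activators 20 rose and 0 fell of 30, at a median log2 difference of 0.86. The largest were *Pld3*, a lysosomal nuclease, 2.44 ± 0.25, adjusted p = 3.34e-05, and *Psap*, the precursor of the saposins that activate glycolipid breakdown, 2.25 ± 0.38, adjusted p = 0.000683. The smallest were *Gla*, the alpha-galactosidase, -0.29 ± 0.13, adjusted p = 0.088, and *Ids*, the iduronate sulfatase, 0.10 ± 0.12, adjusted p = 0.513. Of the membrane genes 6 rose and 1 fell of 11 (median 0.54), led by *Cd63*, 1.94 ± 0.29, adjusted p = 0.000306, and *Lamp1*, 1.64 ± 0.32, adjusted p = 0.00174, with *Ctns*, the cystine exporter, at 0.07 ± 0.16, adjusted p = 0.721, and *Slc17a5*, the sialic acid exporter, which fell, -0.46 ± 0.13, adjusted p = 0.0117, but rose as deposited, 0.99 ± 0.24, adjusted p = 0.00287. Of the vacuolar proton pump, which acidifies the lysosome, 10 rose and 0 fell of 16 (median 0.67), from *Atp6v0a1*, 0.08 ± 0.14, adjusted p = 0.651, and *Atp6v0d1*, 0.09 ± 0.18, adjusted p = 0.687, to *Atp6v0c*, 1.46 ± 0.40, adjusted p = 0.0112, and *Atp6ap1*, 1.5 ± 0.34, adjusted p = 0.00415. Of the sorting and transcription factors 3 rose and 0 fell of 6 (median 0.33), with *Nagpa* of the mannose 6-phosphate pathway at 1.15 ± 0.27, adjusted p = 0.00517 and the transcription factor *Tfe3* at 0.62 ± 0.19, adjusted p = 0.0203, and *Gnptg* and *Sort1*, both sorting genes, at -0.11 ± 0.22, adjusted p = 0.701 and -0.05 ± 0.10, adjusted p = 0.672.

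**Figure D5:**
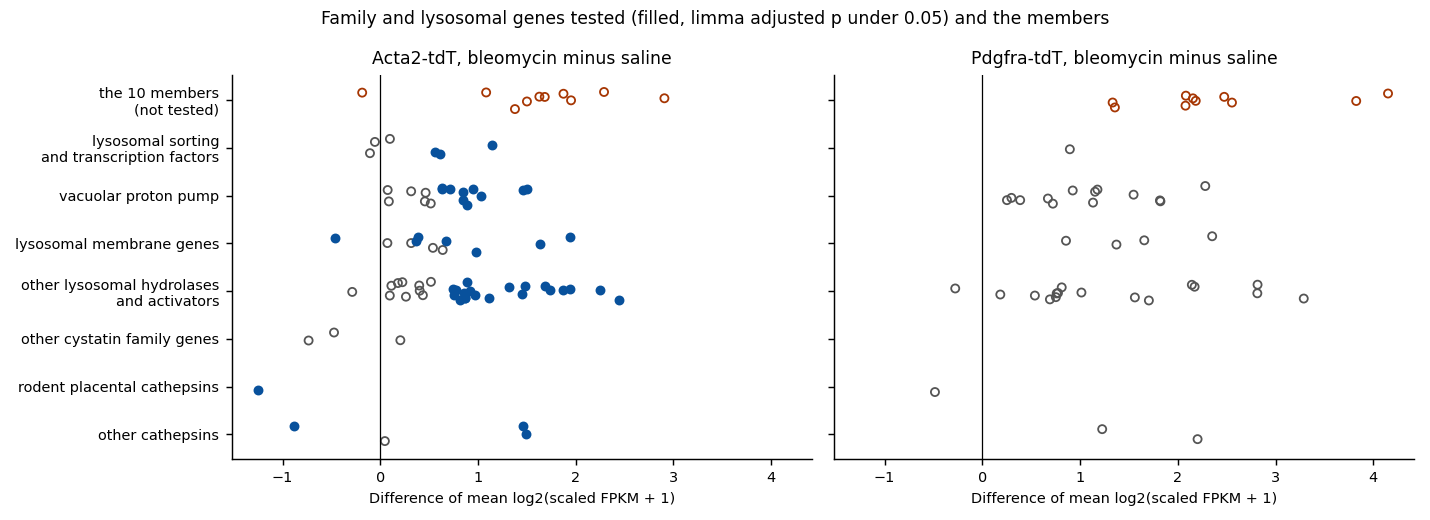
Difference of mean log2(scaled FPKM + 1), bleomycin minus saline, for each tested gene of 7 lists (filled where limma's adjusted p was under 0.05) and, untested, for the 10 members, in *Acta2-tdT* (left) and *Pdgfra-tdT* mice (right). Most list genes lie to the right of 0 in both lines, while 0 of 37 is filled in *Pdgfra-tdT* mice and 44 of 71 are in *Acta2-tdT* mice.

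In *Pdgfra-tdT* mice the hydrolases and activators with the largest scaled differences were *Acp5*, tartrate-resistant acid phosphatase of osteoclasts and macrophages, 3.29 ± 0.67, adjusted p = 0.223, and *Psap*, 2.82 ± 1.04, adjusted p = 0.776, and the smallest *Dnase2a*, the acid nuclease, -0.28 ± 0.56, adjusted p = 0.832, and *Gla*, 0.18 ± 0.40, adjusted p = 0.843. The membrane genes ran from *Laptm4a*, 0.86 ± 1.05, adjusted p = 0.776, and *Lamp2*, 1.37 ± 0.75, adjusted p = 0.776, to *Lamp1*, 1.66 ± 1.05, adjusted p = 0.776, and *Cd63*, 2.35 ± 0.89, adjusted p = 0.776. The pump genes ran from *Atp6v1d*, 0.25 ± 0.69, adjusted p = 0.872, and *Atp6v1h*, 0.30 ± 0.55, adjusted p = 0.822, to *Atp6v0c*, 1.82 ± 0.88, adjusted p = 0.776, and *Atp6v0d2*, the subunit of osteoclasts and macrophages, 2.28 ± 0.56, adjusted p = 0.37. *Nagpa* was the only sorting gene tested there, 0.89 ± 0.44, adjusted p = 0.776. Between the lines with bleomycin 67 of 71 list genes were higher in *Acta2-tdT* mice as deposited, beside 71% of all genes. Scaled, 4 were higher (*Stfa2l1*, *Idua*, *Tmem192* and *Tfeb*), beside 15.8%, and 2 lower, beside 17.6%. The 2 were *Atp6v0d2*, -1.99 ± 0.47, adjusted p = 0.011, and *Gla*, -0.78 ± 0.25, adjusted p = 0.0352, against -0.10 ± 0.74, adjusted p = 0.907, and 0.72 ± 0.45, adjusted p = 0.157 as deposited. They were named after their values were seen, as were *Idua*, *Tmem192* and *Tfeb*.

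By level, *Cst3* led in *Acta2-tdT* saline mice at 116 ± 32.7 scaled FPKM (SD, n = 4), above every protease in every mouse, followed by *Ctsd* (17.2 ± 7.06), *Ctsz* (13.3 ± 3.28), *Ctsl* (12.4 ± 5.61), *Ctss* (10.4 ± 5.96) and *Ctsb* (9.15 ± 3.79), which overlapped their neighbours, and by *Cstb*, *Ctsh*, *Lgmn* and *Ctsk*. In *Acta2-tdT* bleomycin mice *Cst3* (99.8 ± 17.8), *Ctsd* (88.1 ± 32.3) and *Ctss* (85.6 ± 47.5) overlapped at the top and *Ctsk* (2.73 ± 0.353) was lowest in every mouse. In *Pdgfra-tdT* saline mice *Cst3* (19.3 ± 19.4) and *Ctsd* (10.3 ± 7.05) had the highest means and overlapped. In *Pdgfra-tdT* bleomycin mice the order of means was *Ctsd* (164 ± 83.5), *Ctss* (158 ± 110.4), *Cst3* (48.8 ± 33.0), *Ctsz* (39.7 ± 19.2), *Ctsl* (29.9 ± 27.96), *Ctsb* (24.5 ± 13.1), *Cstb* (17.4 ± 10.9), *Ctsh* (8.999 ± 5.27), *Ctsk* (5.93 ± 3.59) and *Lgmn* (4.39 ± 2.53), with overlap between all neighbours. FPKM is per length of transcript, so these levels can be set beside each other.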

How the data were processed

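Tamoxifen-induced tdTomato-positive lung cells of 16 mice, 4 in each of 4 groups of line and treatment given by the labels, were sequenced with SmartSeq2. The authors aligned the reads to mm10 (GRCm38) with TopHat2 2.1.1 and Bowtie2 2.2.9, and the deposited values are FPKM per gene for each mouse, computed with Cufflinks 2.1.1 with the bounds of its interval. No counts come with them, so depth per value is unknown, and all intervals cover 1 library only. The labels give no batch.

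Rows of the same gene were summed, which left 49452 genes, and 15 genes that Cufflinks marked as failed or too deep were left out of the fits. For scaled FPKM, each mouse was multiplied so that its nuclear protein-coding genes summed to the median of the 16 mice (49122). Differences were taken on log2(FPKM + 1), which understates the change of low genes. limma 3.58.1 (R 4.3.3, trend on, tested on simulated data) compared the 8 mice of each pair of groups over genes with at least 1 FPKM in at least 4 mice, and all 16 mice for the difference between lines in the effect of bleomycin, with Benjamini-Hochberg adjustment over all genes at 0.05. A call was made on FPKM as deposited and again scaled, the filter always on the former. The 10 members and the lists were chosen with earlier results of these data known, and no difference of a member was tested. Named were all members, other cathepsins and cystatins with at least 1 FPKM in at least 4 mice, the 2 largest and 2 smallest scaled differences with bleomycin in each lysosomal list, *Acta2* and *Pdgfra*, and for each member the 3 most alike genes, leaving out the other members, predicted genes, RIKEN clones, pseudogenes and small RNAs. Genes outside this rule, such as single markers, are named as parts of a list. Alternatives were the scaling, a pseudocount of 0.1, no filter, 1 fit of all mice, sample weights, the largest row per gene, a replicate block and leaving out each mouse. The work used Python 3.11.15, pandas 2.3.3 and numpy 2.4.6, and values were plotted with matplotlib 3.10.9. Each mouse is 1 animal, and p-values measure the spread between animals.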

Additional observations from a re-analysis of the deposited data

Results flagged for a closer look

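Of the 40 sets of 4 values given by the 10 genes in 4 groups, 7 held a mouse whose FPKM as deposited lay far from the other 3. About 1 in 20 such sets would be marked by chance if the sets were independent and their values normally distributed. The sets share the same 16 mice, the genes vary together and normality was not checked, so no excess is read from the 7. In *Pdgfra-tdT* saline mouse 3, *Ctsl* was 20.47 (others 0.799 to 2.011), *Cst3* 58.26 (others 4.094 to 9.245) and *Cstb* 9.294 (others 0.7199 to 1.293). In *Acta2-tdT* saline mouse 4, *Ctss* was 22.29 (others 4.669 to 7.501) and *Lgmn* 5.114 (others 0.731 to 1.374). *Ctss* was low in *Pdgfra-tdT* bleomycin mouse 8, 20.44 against 232 to 270.0 in the others, and *Cstb* in *Acta2-tdT* bleomycin mouse 6, 95.45 against 183.1 to 198.2. After scaling *Cstb* in mouse 6 no longer stood apart, 20.3 against 21.0 to 28.3, and *Ctss* in mouse 8 was 35.2 against 96.1 to 270.2.

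For 14 of 31 named list genes the effect of bleomycin, as deposited, was larger in *Acta2-tdT* than in *Pdgfra-tdT* mice by limma's test of the difference itself, beside 36.6% of all 16605 genes tested. The excess on the log2 scale was 1.47 for *Atp6v0a1* (adjusted p = 0.00839), 2.27 for *Atp6v0d1* (0.00691), 2.90 for *Atp6v1d* (0.0308) and 2.74 for *Atp6v1h* (0.00945) among proton pump subunits. Among cathepsins and stefins it was 2.65 for *Ctsc* (0.0245), 2.14 for *Ctsf* (0.0457), 1.96 for *Stfa1* (0.0419) and 2.05 for *Stfa2l1* (0.0151). Among the other lysosomal genes it was 1.67 for *Ctns* (0.0169), 2.58 for *Dnase2a* (0.00365), 1.53 for *Ids* (0.0295), 2.39 for *Nagpa* (0.0379), 1.01 for *Slc17a5* (0.0183) and 2.51 for *Tfe3* (0.00356). Some of these genes were named for the size of their bleomycin differences. With a pseudocount of 0.1 the list genes called in this test went from 40 of 74 to 6. After scaling none of these 14 passed, with log2 values of -0.29 to 0.60 and adjusted p of 0.562 to 0.924 in limma, and 3 of 74 list genes had an unadjusted p under 0.05.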

How the results depend on the processing

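Scaling moved 3 of the 5 counts of genes called by over 1.5 times, from 9553 to 4012 between the lines with bleomycin (8520 higher and 1033 lower became 1900 and 2112), from 10848 to 7083 in *Acta2-tdT* mice (8811 and 2037 became 2999 and 4084) and from 6605 to 369 for the difference between lines in the effect of bleomycin. The list genes called went from 67 to 6, from 70 to 44 and from 40 to 0 in these, and the members with every mouse higher from 2 to 4 with saline and from 8 to 1 with bleomycin between the lines. The sign reversed for *Ctss* (-0.64), *Ctsd* (-0.73) and *Ctsk* (-0.71) between the lines with bleomycin and for *Cst3* in *Acta2-tdT* mice (-0.18).

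Between the lines with saline, 237 genes and 1 list gene were called, against 59 and 0 without a filter, 2715 and 23 with sample weights and 126 genes with all mice in 1 fit. In *Pdgfra-tdT* mice 9 and 0 became 2 genes without a filter, 548 and 23 with weights and 15 and 1 with all mice in 1 fit. The difference between lines went from 6605 and 40 to 3463 and 6 with a pseudocount of 0.1 and to 10668 and 64 with weights.

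Without each mouse in turn, the genes called ranged over 14 (without *Acta2-tdT* saline mouse 3) to 2141 (without *Pdgfra-tdT* saline mouse 3) with saline, 6111 to 9952 with bleomycin, 6973 to 10143 in *Acta2-tdT* mice, 0 to 69 in *Pdgfra-tdT* mice and 3739 to 9166 for the difference between lines. The lowest values of the second, the third and the last came without *Acta2-tdT* bleomycin mouse 7 or 8, 69 came without *Pdgfra-tdT* bleomycin mouse 8, and 0 without any 1 *Pdgfra-tdT* saline mouse. The list genes called ranged over 0 to 17, 58 to 67, 50 to 70, 0 to 2 and 23 to 60. Members with every mouse higher ranged over 2 to 6, 8 to 10, 10 to 10 and 4 to 9, where 6 and 9 came without *Pdgfra-tdT* saline mouse 3 and bleomycin mouse 8.

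Scaling and leaving out 1 mouse together was chosen after seeing the data. Without *Pdgfra-tdT* saline mouse 3, 2850 genes, 19 list genes and 6 members were called or higher with saline, and 0 genes and 8 members in *Pdgfra-tdT* mice. Without *Pdgfra-tdT* bleomycin mouse 8, 3160 genes, 4 list genes and 1 member were called or higher between the lines with bleomycin, and 41 genes, 1 list gene and 9 members in *Pdgfra-tdT* mice. The log2 difference between the lines with bleomycin was then -0.39 for *Ctsl*, -1.22 for *Ctss* and -0.19 for *Ctsz*.

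A replicate block over equal mouse numbers gave 36 genes and 0 list genes with saline and changed neither count by over 1.5 times with bleomycin. Same-numbered mice correlated at -0.307 to 0.157 and not every mouse best with its own number, so the numbers were not taken as a pairing. The members' log2 differences moved by less than their spread in 320 of 320 values without 1 mouse, in 40 of 40 with the largest row and in 37 of 40 with a pseudocount of 0.1, and the shares in 160 of 160 and 40 of 40. The cause was not tested for any result that changed. Depth is unknown, and *Ctsk* in saline mice was under 1 FPKM with a wide Cufflinks interval.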
